A study of Homo sapiens with 6 samples.

Results

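The CCR4-NOT complex was examined through the mRNA of 10 of its subunits, CNOT1, CNOT2, CNOT3, CNOT4, CNOT6, CNOT6L, CNOT7, CNOT8, CNOT10 and CNOT11, taken by gene symbol from a table of 17047 genes. All 10 were found, and all 10 were among the 12959 genes that passed the filter on low counts. The cells were HCT116, an established human colorectal carcinoma line. Polyadenylated RNA was read as single-end 50-nt reads in 3 libraries of cells with a non-targeting shRNA (shNC) and 3 libraries of cells with PLEK2 shRNA, both delivered by viral transduction. A single PLEK2 shRNA was listed, so the knockdown group may stand for 1 target sequence. No source used here states which sequence each knockdown library carried, or whether same-group libraries came from separate cultures. The p-values therefore measure the spread between these libraries, which may be technical. In bulk RNA, a change in the RNA per cell and a change in the make-up of the culture cannot be told apart.

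CCR4-NOT is the main cytoplasmic machine that shortens the poly(A) tail of mRNAs, the step that usually opens mRNA decay. CNOT1 is the large scaffold on which the other subunits sit. The tail is removed by enzymes of 2 classes, the EEP-type nucleases CNOT6 and CNOT6L and the DEDD-type nucleases CNOT7 and CNOT8, and within each class the paralogues compete for the same place in the complex. Adaptor proteins bring the complex to chosen mRNAs. YTHDF2, which reads the N6-methyladenosine mark on mRNA and which the study examined as a partner of PLEK2, is one of them, so the comparison asks whether the mRNA supply of the complex differed after PLEK2 knockdown.

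The libraries held between 14377533 and 15602732 estimated counts, and the members held between 0.0974% and 0.113% of them. PLEK2 itself was checked first. Its level in CPM, a count divided by the TMM-adjusted size of its library, was 86.0, 72.6 and 82.9 in shNC 1, 2 and 3 and 16.0, 32.2 and 34.9 in PLEK2 shRNA 1, 2 and 3. All knockdown libraries lay below all shNC libraries, with a log2 fold change of -1.54 (SE 0.24, n = 3 per group). The adjusted p was 0.684 in edgeR's quasi-likelihood test without a block and 0.00106 with the replicate number as a block. Of the epithelial markers, EPCAM lay between 240 and 270 CPM and CDH1 between 73.0 and 120 CPM (here over unscaled library totals), while VIL1 did not exceed 0.195 CPM. The summed level of the 7 epithelial markers in the table was between 7555 and 8684 CPM in shNC and between 6281 and 8053 CPM in PLEK2 shRNA libraries. Of the 6 tested, 5 had a log2 fold change below 0 (median -0.20), where 49.4% of all genes were above 0. In edgeR 0 of the 6 had an adjusted p under 0.05, against 0% of all genes without and 0.849% with the block. At an unadjusted p under 0.05 there was 1 without the block, where 3.09% of all genes had one. With the block there were 4, all lower, where 10.4% of all genes were called lower. The part of these markers in the members' values was not tested. CD3E, COL1A2, PECAM1 and ALB, markers of other cell types, did not exceed 0.138 CPM, and VWF lay between 0.417 and 1.17 CPM. Others of these markers were higher, CD68 between 36.2 and 53.7 CPM and COL1A1 between 24.5 and 33.3 CPM.

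The 21 bases of the PLEK2 transcript that the listed shRNA matches are shown because they are the only PLEK2 target listed. They lie in coding exon 2 of 9 at chr14:67397753-67397773 on the minus strand of GRCh38, and the capitals mark the bases that would pair with guide bases 2 to 8, counted from the guide's 5′ end if the guide is the reverse complement of the listed sequence.
PLEK2 shRNA target: gctggtgtactacAAGCTTGa
The fewest mismatches between these 21 bases and the canonical transcript of any member were 5, in CNOT6 and in CNOT6L. CNOT4, CNOT7 and CNOT8 had at least 7, CNOT1, CNOT2, CNOT10 and CNOT11 at least 8, and CNOT3 at least 9.

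Levels between genes were compared in FPKM, which divides by transcript length. Over the 6 libraries the mean FPKM ran from 54.4 for CNOT7 to 4.20 for CNOT6L, a 12.9-fold range. The scaffold CNOT1 followed with a mean of 52.5 FPKM, and CNOT7 was the higher of this pair in 3 of 6 libraries. CNOT3 had a mean of 40.0 FPKM and CNOT11 one of 34.4 FPKM. CNOT10, CNOT8 and CNOT2 lay close together at 22.5, 21.6 and 17.9 FPKM, and CNOT4 and CNOT6 at 11.5 and 10.5 FPKM. Ranges over libraries did not overlap between CNOT1 and CNOT3, between CNOT11 and CNOT10, between CNOT2 and CNOT4 or between CNOT6 and CNOT6L. The ranges of the other neighbours overlapped. Within a library, CNOT8 was above CNOT2 in 6 of 6 libraries, CNOT3 above CNOT11 and CNOT4 above CNOT6 in 5 of 6, and CNOT10 above CNOT8 in 4 of 6. The FPKM of CNOT7 implies a length of 2.59 kb, against 6890 nt for its canonical transcript in GENCODE 44, so its place at the top depends on which isoform length is used. At the canonical length its mean would be 20.4 FPKM, the sixth of the 10 (a rescaling chosen after seeing the data).

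**Figure D1:**
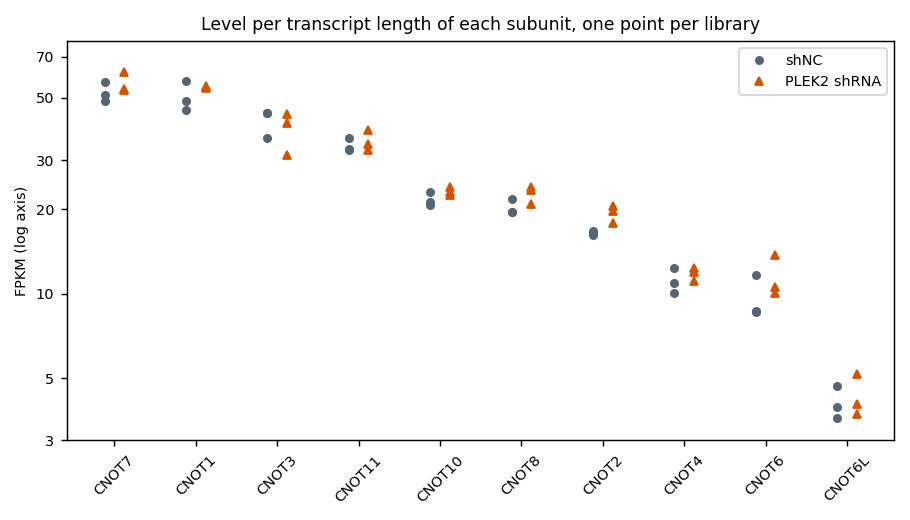
FPKM of each CCR4-NOT subunit on a log axis, ordered by the mean over 6 libraries, with circles for shNC and triangles for PLEK2 shRNA libraries. CNOT7 and CNOT1 share the top with means of 54.4 and 52.5 FPKM, and CNOT6L lies apart at the bottom with a mean of 4.20 FPKM.

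No subunit passed an adjusted p of 0.05 after PLEK2 knockdown. In edgeR's quasi-likelihood test, 0 of 10 members and 0 of 12959 genes (0%) did so without the block, and 0 of 10 members against 0.849% of all genes with it. At an unadjusted p under 0.05, 1 member, CNOT2, passed without the block, where 3.09% of all genes did. With the block 3 members passed, where 18.3% of all genes did: CNOT2 and CNOT6 were higher (7.89% of all genes were called higher) and CNOT3 was lower (10.4% were called lower). No member reached a 1.5-fold difference with an unadjusted p under 0.05, which 0.463% of all genes did. DESeq2's Wald test without a block called 12 genes at an adjusted p under 0.05, none of them a member. At an unadjusted p under 0.05 it called 0 members, where 1.77% of 17020 genes passed.

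In edgeR with all 6 libraries and TMM scaling, the 95% intervals of all 10 members lay inside a 1.5-fold change in either direction, between 0.728-fold and 1.48-fold without the block and between 0.826-fold and 1.26-fold with it. The interval of CNOT6 reached past 1.5-fold with library totals (1.51-fold) and without shNC 1 (1.64-fold), PLEK2 shRNA 2 (1.59-fold) or PLEK2 shRNA 3 (1.61-fold), and that of CNOT3 reached down to 0.664-fold without PLEK2 shRNA 2. Fitted log2 fold changes were above 0 for 9 of 10 members, CNOT3 being the exception, against 49.4% of all genes. Without PLEK2 shRNA 1, 6 of 10 were above 0 (47.2% of all genes), CNOT6L, CNOT7 and CNOT11 also lying below, and without shNC 3, 7 of 10 were (52.7% of all genes), CNOT4 and CNOT6L also lying below. The members' median was 0.07 on the log2 scale, against -0.0021 over all genes tested. It was 0.16 without shNC 1, 0.02 without shNC 3, 0.05 without PLEK2 shRNA 1 and 0.11 without PLEK2 shRNA 3, where the median of all genes lay between -0.0083 and 0.01. Within same-numbered pairs, 7, 7 and 9 of 10 members were higher with PLEK2 shRNA in pairs 1, 2 and 3, where 50.2%, 48.7% and 49.8% of all genes were. CNOT2, CNOT6, CNOT6L, CNOT8 and CNOT10 were higher in all 3 pairs (19.9% of all genes were), and CNOT3 was lower in all 3 (21.1% of all genes were). In CPM the groups did not overlap for 2 members, CNOT2 and CNOT10, both higher with PLEK2 shRNA (4.08% of all genes were higher without overlap). In FPKM the groups of CNOT10 overlapped, with shNC 3 at 23.06 and PLEK2 shRNA 2 and 3 at 23.05 and 22.46. No member was lower without overlap, which 5.12% of all genes were. A smooth term for GC content, described further on, left 7 of 10 members above 0 without the block, with a median of 0.02. In that fit 49.8% of all genes were above 0.

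**Figure D2:**
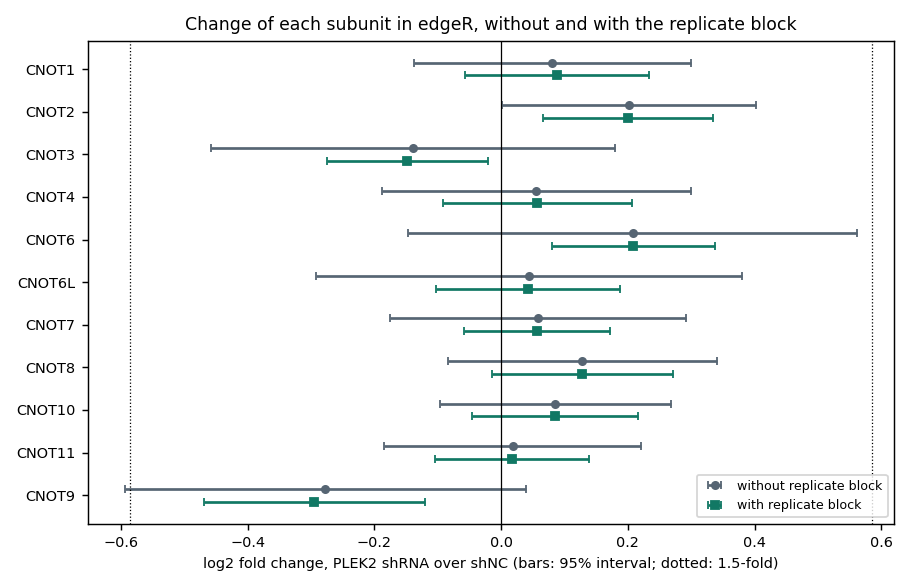
Log2 fold change (PLEK2 shRNA over shNC) of the 10 members and of CNOT9, without (circles) and with (squares) the replicate block. Bars are 95% intervals and dotted lines mark 1.5-fold. The intervals of all 10 members stay between the dotted lines in both fits, and CNOT9 without the block reaches past the lower line.

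CNOT1 (gene ID 23019, chr16:58519951-58629885 in GRCh38, minus strand, 49 exons) holds the complex together. It was at 482, 409 and 378 CPM in shNC 1 to 3 and at 439, 457 and 447 CPM in PLEK2 shRNA 1 to 3. The shNC libraries spread widely around the narrow range of the knockdown libraries, and the groups overlapped. The pair ratios on the log2 scale were -0.13, 0.16 and 0.24, so pair 1 went against the other pairs. The fitted log2 fold change was 0.08 (SE 0.10, edgeR adjusted p = 0.968), and 0.09 with the block (adjusted p = 0.516). Without replicate 1 in both groups, the fit with the block gave 0.20 (adjusted p = 0.0188), the single setting of 21 alternatives in which any member passed. In that fit 528 of 13014 genes passed. Without shNC 1 alone the CNOT1 value was also 0.20, and without shNC 3 it was 0.02. Counts of CNOT1 were not whole numbers in any library: its transcript shares up to 1086 nt with SETD6 on the opposite strand, and the summed counts of both genes were whole in 6 of 6 libraries. SETD6 held at most 407 counts where CNOT1 held at least 5459.

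CNOT2 (gene ID 4848, chr12:70243002-70354993, plus strand) and CNOT3 (gene ID 4849, chr19:54137749-54155681, plus strand) form the NOT module with the C-terminal part of CNOT1, a surface to which adaptors bind. CNOT2 was at 49.9, 50.4 and 48.5 CPM in shNC and at 60.1, 58.5 and 52.5 CPM in PLEK2 shRNA libraries. Every knockdown library was above every shNC library, and the pair ratios were 0.27, 0.21 and 0.11 on the log2 scale. Its log2 fold change was 0.20 (SE 0.09), with an unadjusted p of 0.0486 and an adjusted p of 0.968 in edgeR, and an unadjusted p of 0.00655 and an adjusted p of 0.125 with the block. CNOT3 was at 102, 124 and 123 CPM in shNC and at 84.7, 121 and 111 CPM in PLEK2 shRNA libraries. In both groups the replicate 1 library was the lowest for CNOT3, and the groups overlapped. The pair ratios were -0.26, -0.04 and -0.15, and the log2 fold change was -0.14 (SE 0.14, edgeR adjusted p = 0.968), with an unadjusted p of 0.0261 and an adjusted p of 0.208 in the fit with the block. Without PLEK2 shRNA 1, the CNOT3 value was -0.0024. In FPKM, the module's sum was 52.7, 61.0 and 60.5 in shNC and 51.8, 63.5 and 58.4 in PLEK2 shRNA libraries, so the groups overlapped.

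CNOT4 (gene ID 4850, chr7:135361795-135510145, minus strand) is a RING-type E3 ubiquitin ligase that associates loosely with the human complex. Its level was 41.8, 37.1 and 33.8 CPM in shNC and 40.4, 40.1 and 36.7 CPM in PLEK2 shRNA libraries. The groups overlapped, and pair 1 had the opposite sign to pairs 2 and 3 (log2 ratios -0.05, 0.11 and 0.12). The log2 fold change was 0.06 (SE 0.11, edgeR adjusted p = 0.969).

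CNOT10 (gene ID 25904, chr3:32685145-32773875, plus strand) and CNOT11 (gene ID 55571, chr2:101252886-101270316, plus strand) bind the N-terminal part of CNOT1. CNOT10 was at 56.7, 54.1 and 57.2 CPM in shNC and at 60.7, 60.3 and 57.3 CPM in PLEK2 shRNA libraries. In CPM the groups did not overlap, but shNC 3 and PLEK2 shRNA 3 were nearly equal, and in FPKM the groups overlapped. The log2 fold change was 0.09 (SE 0.08, edgeR adjusted p = 0.968), and 0.04 with the GC term described further on. CNOT11 was at 86.7, 79.1 and 78.2 CPM in shNC and at 89.1, 77.3 and 80.7 CPM in PLEK2 shRNA libraries. The groups of CNOT11 overlapped throughout, and its log2 fold change of 0.02 (SE 0.09) was the smallest of the members in size, with a 95% interval from -0.19 to 0.22.

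**Figure D3:**
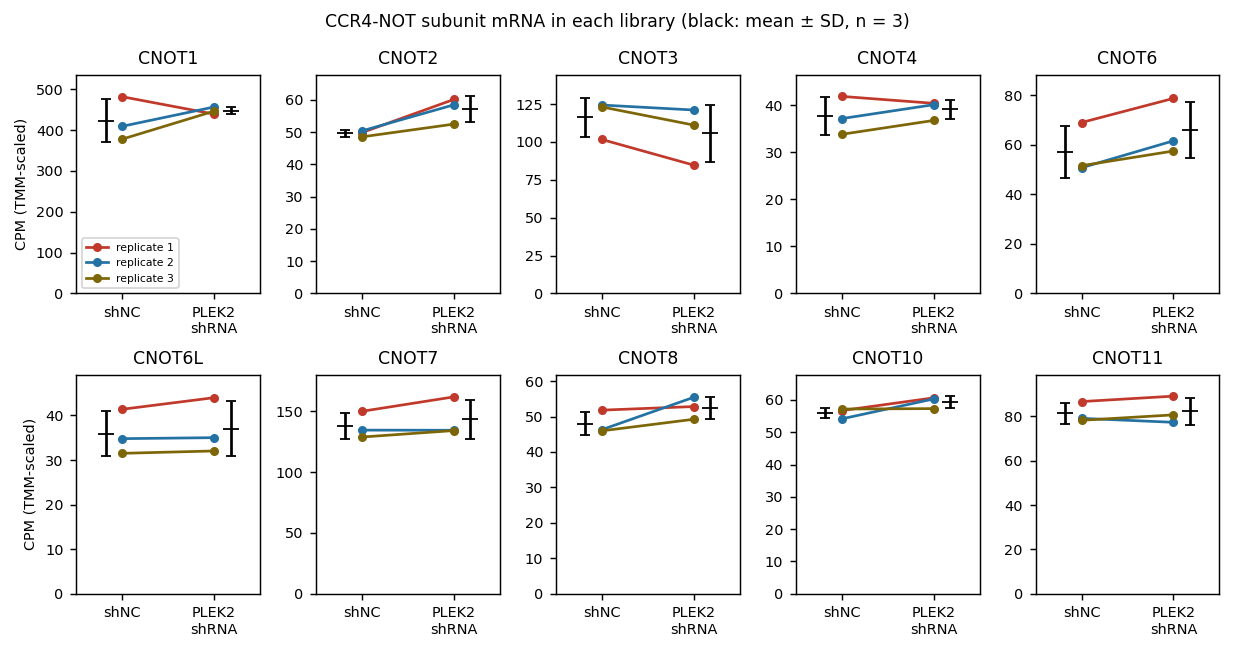
CPM (TMM-scaled, axes from 0) of each subunit in every library, with lines joining same-numbered shNC and PLEK2 shRNA libraries and black bars for the group mean ± SD (n = 3). CNOT2 and CNOT10 are the subunits whose groups do not overlap. Replicate 1 lies apart from replicates 2 and 3 in both groups for CNOT3, CNOT6, CNOT6L, CNOT7 and CNOT11. Of these, CNOT11 did not pass between replicate numbers (edgeR adjusted p = 0.133).

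CNOT6 (gene ID 57472, chr5:180494379-180578358, plus strand) and CNOT6L (gene ID 246175, chr4:77713387-77819615, minus strand), the EEP-type nucleases, are close paralogues, and a sequence is shown to let their reads be judged. Their canonical transcripts share no identical run longer than 20 nt, which is shorter than a 50-nt read. The longest run lies in coding exon 9 of 12 of both genes, at chr5:180567906-180567945 on the plus strand for CNOT6 and chr4:77731442-77731481 on the minus strand for CNOT6L (GRCh38, with 10 nt on each side), and the capitals mark the shared 20 nt.
CNOT6: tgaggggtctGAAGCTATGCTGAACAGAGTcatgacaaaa
CNOT6L: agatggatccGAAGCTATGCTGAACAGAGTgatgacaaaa
Counts of both genes were whole numbers in 6 of 6 libraries, although CNOT6L shares runs of up to 166 nt with the pseudogene CNOT6LP1, which was not among the symbols of the table.

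CNOT6 was at 69.0, 50.7 and 51.6 CPM in shNC and at 78.8, 61.6 and 57.5 CPM in PLEK2 shRNA libraries. Each knockdown library was above the shNC library of its number, yet shNC 1 exceeded PLEK2 shRNA 2 and 3, so the groups overlapped. The pair ratios were 0.19, 0.28 and 0.16 on the log2 scale. The log2 fold change was 0.21 (SE 0.16, edgeR unadjusted p = 0.218, adjusted p = 0.968), the largest of the members, with CNOT2 close at 0.20. The fit with the block gave 0.21 for CNOT6 (SE 0.06, unadjusted p = 0.00387, adjusted p = 0.103). Leaving out 1 library moved the CNOT6 value between 0.06 without PLEK2 shRNA 1 and 0.38 without shNC 1. CNOT2 was the higher without PLEK2 shRNA 1 (0.16), shNC 2 (0.22, against 0.14 for CNOT6) or shNC 3 (0.20, against 0.15). CNOT2 was also the higher with the GC term (0.13, against 0.12 for CNOT6). The same held in the fit with the block without replicate 2 (0.20, against 0.19) or replicate 3 (0.25, against 0.24) in both groups. CNOT6L was at 41.4, 34.8 and 31.5 CPM in shNC and at 44.0, 35.0 and 32.0 CPM in PLEK2 shRNA libraries. Its pair ratios of 0.09, 0.01 and 0.02 were near 0, and the log2 fold change was 0.04 (SE 0.15, edgeR adjusted p = 0.985).

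The share of CNOT6L in the summed FPKM of the EEP-type pair was 28.7%, 31.5% and 29.5% in shNC 1 to 3 and 27.4%, 27.6% and 27.1% in PLEK2 shRNA 1 to 3. All knockdown libraries were below all shNC libraries. The means were 29.9% ± 1.42 and 27.4% ± 0.254 (SD, n = 3), a difference of -2.53 percentage points. The exact two-sided permutation test over libraries gave p = 0.1, the smallest that 3 against 3 can give, and 0.2 after Benjamini-Hochberg adjustment over the 2 shares tested. The difference lay between -3.12 and -1.74 points when a library was left out. Within pairs 1, 2 and 3 it was -1.37, -3.86 and -2.37 points (exact two-sided sign-flip test over the 3 pairs, added after seeing the data, p = 0.25, the smallest that 3 pairs can give).

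CNOT7 (gene ID 29883) and CNOT8 (gene ID 9337, chr5:154857553-154876792, plus strand), the DEDD-type nucleases, also share no identical run longer than 20 nt. CNOT7 was at 150, 135 and 129 CPM in shNC and at 162, 135 and 134 CPM in PLEK2 shRNA libraries. Replicate 1 was the highest in both groups, the pair ratios were 0.11, -0.0013 and 0.06, and the log2 fold change was 0.06 (SE 0.10, edgeR adjusted p = 0.968). Counts of CNOT7 were not whole in any library. Its canonical transcript shares a run of 2057 nt with an unnamed gene on the opposite strand. In the same orientation it shares runs of 87 and 73 nt with the pseudogenes CNOT7P1 and CNOT7P2 and of 75 nt with another unnamed gene. None of these partners is a row of the table. CNOT8 was at 51.8, 46.3 and 46.0 CPM in shNC and at 52.8, 55.5 and 49.2 CPM in PLEK2 shRNA libraries. The groups of CNOT8 overlapped, with pair ratios of 0.03, 0.26 and 0.10 and a log2 fold change of 0.13 (SE 0.09, edgeR adjusted p = 0.968). The CNOT8 value was 0.20 without shNC 1 and 0.06 with the GC term described further on.

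CNOT7 made up 72.3%, 72.4% and 71.4% of the summed FPKM of CNOT7 and CNOT8 in shNC and 72.5%, 68.9% and 72.0% in PLEK2 shRNA libraries. The means of 72.0% ± 0.539 and 71.1% ± 1.94 (SD, n = 3) differed by -0.910 points (exact two-sided permutation p = 0.7). The difference turned to 0.199 points without PLEK2 shRNA 2, the lowest library. Within pairs 1, 2 and 3 it was 0.253, -3.52 and 0.538 points (exact two-sided sign-flip test, p = 1). The summed FPKM of the DEDD-type pair was between 4.53 and 5.64 times that of the EEP-type pair. This ratio was 4.83, 5.64 and 5.58 in shNC and 4.53, 5.29 and 5.43 in PLEK2 shRNA libraries, lower in each knockdown library than in the shNC library of its number, with overlapping groups. These levels rest on the length used for CNOT7: with its FPKM rescaled to the canonical 6890 nt, its share would lie between 45.4% and 49.8%, so that CNOT8 would be the higher of the pair, and the ratio between 2.48 and 3.09. The difference in share between the groups would be -1.09 points.

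**Figure D4:**
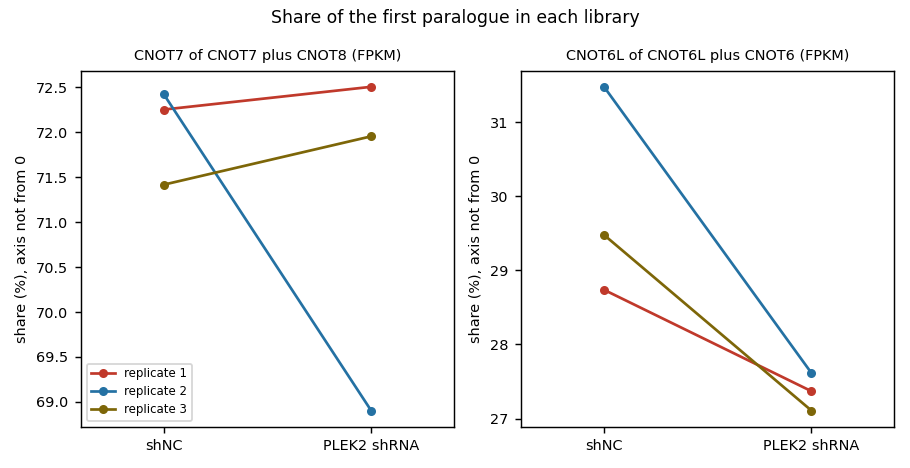
Share (%) of CNOT7 in CNOT7 plus CNOT8 and of CNOT6L in CNOT6L plus CNOT6, in summed FPKM, with lines joining same-numbered libraries (axes do not start at 0). The CNOT6L share is lower in all 3 PLEK2 shRNA libraries, between 27.1% and 27.6%, and the CNOT7 share of PLEK2 shRNA 2 lies apart at 68.9%.

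Levels also differed between replicate numbers. In the edgeR fit with the block, 4 of 10 members differed between the 3 replicate numbers at an adjusted p under 0.05, where 28.4% of all genes did. CNOT6 (adjusted p = 0.00143), CNOT6L (adjusted p = 0.0051) and CNOT7 (adjusted p = 0.0222) were higher in replicate 1 than in the mean of replicates 2 and 3, by 0.42, 0.36 and 0.23 on the log2 scale. CNOT3 (adjusted p = 0.00311) was lower there, with a difference of -0.37. With library totals in place of TMM scaling, 4 of 10 members were called, where 29.3% of all genes were. CNOT2 (0.07), CNOT8 (0.09) and CNOT10 (0.04) differed least in the same contrast of replicate 1 with the others.

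Both differences moved with the GC content of the transcript across all genes. In 5 equal bins of GC content over 12478 genes (96.3% of those tested), the median log2 fold change with PLEK2 shRNA was 0.10, 0.06, 0.0063, -0.05 and -0.12 from the lowest to the highest bin. The medians of replicate 1 against replicates 2 and 3 were 0.30, 0.13, -0.02, -0.14 and -0.24 in the same order. CNOT6 (39.7% GC), CNOT6L (36.0%) and CNOT7 (35.6%) were in the lowest bin, CNOT1, CNOT2, CNOT4, CNOT8 and CNOT10 in the next, CNOT11 in the middle one and CNOT3 (61.5%) in the highest. Among the 4991 genes of the lowest 2 bins, 74.6% had a log2 fold change above 0 and 35.7% were higher in all 3 pairs, with a median of 0.08. The 8 members there were all above 0, 5 of them in all 3 pairs, also with a median of 0.08. Once a smooth GC term per library was removed, 0 of 10 members differed between replicate numbers, where 7.81% of all genes did. For the shRNA comparison with the block and this term, 0 of 10 members passed an adjusted p of 0.05, where 0.801% of all genes did. CNOT6L and CNOT7 then had values of -0.08 and -0.06. Of the 3 members with an unadjusted p under 0.05 in the edgeR fit with the block alone, 1 kept it with this term, where 11.2% of all genes had one: CNOT2 at 0.13 (unadjusted p = 0.0434, adjusted p = 0.427). In edgeR CNOT6 was then at 0.12 (unadjusted p = 0.054, adjusted p = 0.459) and CNOT3 at -0.05 (unadjusted p = 0.441, adjusted p = 0.842).

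**Figure D5:**
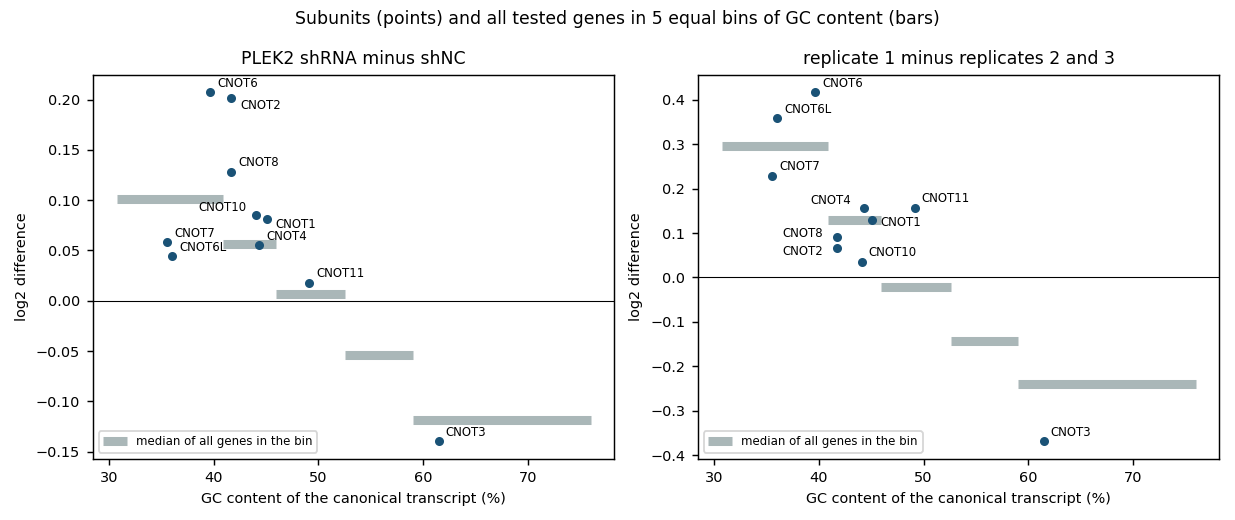
Log2 difference against the GC content (%) of the canonical transcript, for PLEK2 shRNA minus shNC (left) and replicate 1 minus replicates 2 and 3 (right). Points are the 10 subunits and bars the medians of all tested genes in 5 equal bins of GC content, which run from 0.10 to -0.12 on the left and from 0.30 to -0.24 on the right, with CNOT3 at the high-GC end of both.

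CNOT9, a subunit outside the 10 members, binds the CNOT1 centre and serves as a docking site for microRNA effectors and other adaptors. With all 6 libraries its fitted difference was larger in size than that of any of the 10 members. This order turned without PLEK2 shRNA 1 (-0.12, against 0.16 for CNOT2) and without shNC 1 (-0.29, against 0.38 for CNOT6). It also turned in the fit with the block without replicate 1 in both groups (-0.14, against 0.22 for CNOT6). CNOT9 was at 135, 145 and 137 CPM in shNC and at 88.5, 134 and 122 CPM in PLEK2 shRNA libraries. All knockdown libraries were below all shNC libraries, and PLEK2 shRNA 1 was far below the others, with pair ratios of -0.61, -0.11 and -0.17. The log2 fold change was -0.28 (SE 0.14, edgeR adjusted p = 0.968), and -0.29 with the block (adjusted p = 0.0961). It was -0.12 without PLEK2 shRNA 1. In the edgeR fit with the block it was -0.14 (adjusted p = 0.156) without replicate 1 in both groups and -0.38 (adjusted p = 0.262) without replicate 2. Without replicate 3 it was -0.35 (adjusted p = 0.00712), in a fit where 297 of 12988 genes passed. CNOT9 also differed between replicate numbers (edgeR adjusted p = 0.0487). With the GC term its log2 fold change was -0.30 without the block (edgeR adjusted p = 0.996). With the GC term and the block it was -0.32 (edgeR adjusted p = 0.0541).

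Among 86 tested genes of other mRNA decay lists, 44 had a log2 fold change above 0 and 42 below, with a median of 0.0034. With the block, 2 passed an adjusted p of 0.05 in edgeR, both lower, where 0.849% of all genes passed. Without it 0 did, and 2 had an unadjusted p under 0.05, where 3.09% of all genes had one. ZNF598, a ubiquitin ligase of stalled ribosomes, was at 84.8, 97.5 and 95.7 CPM in shNC and at 70.6, 83.0 and 71.7 CPM in PLEK2 shRNA libraries. Its log2 fold change was -0.30 in both fits (edgeR adjusted p = 0.0355 with the block) and -0.17 with the GC term and the block (adjusted p = 0.242). The call was also lost without replicate 2 (-0.33, adjusted p = 0.258) or replicate 3 (-0.24, adjusted p = 0.0948) in both groups. In DESeq2 with the block and all libraries ZNF598 did not pass either (-0.295, adjusted p = 0.0583). LSM14B, a paralogue of the decapping-associated LSM14A, was at 54.2, 62.9 and 63.3 CPM in shNC and at 33.4, 49.5 and 51.6 CPM in PLEK2 shRNA libraries. It fell by 0.44 on the log2 scale in the fit with the block (edgeR adjusted p = 0.0246), and this call was lost without replicate 2 in both groups (-0.48, adjusted p = 0.181). With the GC term and the block LSM14B was at -0.39 (edgeR adjusted p = 0.0185). Without the block its value was -0.42 with all libraries and -0.25 without PLEK2 shRNA 1. YTHDF2 was at 162, 153 and 162 CPM in shNC and at 162, 171 and 161 CPM in PLEK2 shRNA libraries, with a log2 fold change of 0.05 and a 95% interval from -0.12 to 0.22.

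The decay lists gave no other adjusted call in either fit. Their counts stand against 49.4% of all genes with a log2 fold change above 0. All 5 genes listed as further subunits and partners, CNOT9, TNKS1BP1, HELZ, GIGYF2 and ZNF598, had a log2 fold change below 0, with a median of -0.20. The BTG/TOB family, whose members link CNOT7 and CNOT8 to poly(A)-binding protein, had 4 of 5 tested genes above 0 with a median of 0.12. The RNA-binding recruiters had 12 of 19 above 0, the microRNA effectors 5 of 7, the other deadenylases 3 of 8, the poly(A)-binding proteins 3 of 7, the decapping and 5′-to-3′ decay factors 9 of 19 and the exosome and SKI complex 8 of 16.

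Over the 6 libraries, the members' mean profile (log2 CPM, each gene centred on its mean) was 0.07, -0.07 and -0.11 in shNC 1 to 3 and 0.10, 0.05 and -0.04 in PLEK2 shRNA 1 to 3. The nearest of 10151 other genes by root mean square distance were FBXW2 (0.0101), C3orf38 (0.0166) and TRIB1 (0.0175). FBXW2, the F-box protein of a ubiquitin ligase, had a log2 fold change of 0.06, C3orf38 one of 0.05 and TRIB1, a pseudokinase, one of 0.04.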

How the data were processed

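RNA-seq of 6 HCT116 libraries was analysed, 3 with shNC and 3 with PLEK2 shRNA, grouped and numbered by the labels. The authors deposited a table of estimated counts, between 84.2% and 85.4% of them whole numbers, and values without a stated unit that were read as FPKM, computed by the authors from count, transcript length and library total: the relative depths these FPKM imply were between 0.998 and 1.002 times the ratios of the deposited count totals over 3150 genes. The group means the authors also deposited were not used. The submitters' processing notes name HISAT2 2.0.4, Bowtie2 2.2.5, RSEM 1.2.12, DESeq2 1.4.5 and the build GRCm38.p6, a mouse build, although the gene symbols are human. The build behind the counts was not settled, and all positions and sequences given here are from GRCh38 with GENCODE 44, matched by symbol. Whether counting used strand is not given in the sources used here, so overlapping genes on opposite strands may share reads. CNOT1 and SETD6 had counts that were whole only in sum, in 6 of 6 libraries. CNOT3 shares a run of 376 nt with LENG1 and CNOT8 one of 142 nt with FAXDC2, both on the opposite strand. The counts of CNOT3 and CNOT8 were whole in 6 of 6 libraries.

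Counts were rounded, filtered (filterByExpr), scaled by TMM (factors 0.984 to 1.02) and tested with edgeR 4.0.16's quasi-likelihood test by group, with Benjamini-Hochberg adjustment over 12959 genes. R 4.3.3, limma 3.58.1, DESeq2 1.42.0, BLAST 2.17.0 and Python 3.11.15 were also used. Intervals use the t distribution with edgeR's degrees of freedom. Deviations from group means correlated at 0.736, 0.558 and 0.554 between libraries sharing a number (10161 genes), and between -0.629 and 0.358 otherwise. Libraries 2 and 3 of opposite groups also correlated across numbers, at 0.355 and 0.358. No source explains the numbers or states that they pair the libraries. Because libraries sharing a number deviated together, a second fit, blocked on that number, stands beside results it changes. Libraries of a group differed beyond counting error (chi-square per gene 3.06 to 20.2). A GC term (lowess, span 0.3, per library) and the test between replicate numbers were chosen after seeing the data. The tests were tried on simulated counts with known changes.

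The members and gene lists were chosen with earlier results of these data known. Genes named were all 10 members, PLEK2, CNOT9, YTHDF2, decay-list genes with an adjusted p under 0.05 in either fit and the 3 with the smallest p with the block, and the 3 genes nearest to the members' profile. Alternatives were other scalings, filters and pseudocounts, DESeq2, limma on log2(FPKM + 1) or log2(FPKM + 0.1), the block, and leaving out libraries or pairs.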

Additional observations from a re-analysis of the deposited data

How the results depend on the processing

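Of 210 values, 10 members under each of 21 alternatives, 194 kept their direction and their side of the threshold of adjusted p. A further 6, in DESeq2 with the replicate block, kept their direction but had no adjusted p (CNOT2, CNOT4, CNOT6, CNOT6L, CNOT8 and CNOT10). In 9 cases the sign turned for a member that had passed no threshold: CNOT6L and CNOT7 with a GC term (-0.0758 and -0.0619) and with a GC term and the replicate block (-0.0779 and -0.0648), and CNOT4, CNOT6L, CNOT7 and CNOT11 when a library was left out. Leaving out 1 library at a time gave -0.00639 to 0.152 for CNOT4, -0.0989 to 0.173 for CNOT6L, -0.0371 to 0.137 for CNOT7 and -0.0420 to 0.0793 for CNOT11. The negative values came without shNC 3 (CNOT4 and CNOT6L) or PLEK2 shRNA 1 (CNOT6L, CNOT7 and CNOT11). CNOT1 passed with a value of 0.20 without replicate 1 in both groups, in the fit with the block. The cause was not tested.

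Genes past an adjusted p of 0.05, 0 in the reported fit without the block, numbered 110 with the replicate block, 192 with the block and library totals, 60 with DESeq2 and the block, 12 with DESeq2 alone, 9 with the GC term and 100 with the GC term and the block. They numbered 528, 18 and 297 in the fit with the block without replicate 1, 2 or 3, and 0 to 1 when 1 library was left out. Members past it numbered 1, 0 and 0 without replicate 1, 2 or 3. Genes past 1.5-fold with an unadjusted p under 0.05, 60 as reported, numbered 159 among all genes with a count, 16 with limma on log2(FPKM + 1), 98 with the block, 99 with the block and library totals, 31 with DESeq2 and the block, 151, 137 and 150 without replicate 1, 2 or 3 with the block, and 64 to 159 when 1 library was left out. Members past an unadjusted p of 0.05, 1 as reported (3.09%), numbered 0 among all genes with a count (where 3.0% of all genes had one), 0 with DESeq2 (1.77%), 0 with the GC term (4.55%), 3 with the block (18.3%), 3 with the block and library totals (19.9%), 2 with DESeq2 and the block (4.92%), 4, 3 and 2 without replicate 1, 2 or 3 with the block (19.3%, 11.7% and 14.4%), and 0 to 2 when 1 library was left out (1.41% to 8.66%). The members' median, 0.07, was 0.0242 with the GC term, 0.0246 with the GC term and the block, and 0.0187 to 0.163 when 1 library was left out. In edgeR with all libraries, the block moved no member past an adjusted p of 0.05. The members held between 455 and 7394 estimated counts a library.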
